A study of Mus musculus with 4 samples.

Results

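The lysyl oxidases and the main structural genes of elastic fibres were examined in mouse pluripotent cells and fibroblasts. The group holds 10 genes, taken by name: the lysyl oxidases Lox, Loxl1, Loxl2, Loxl3 and Loxl4, elastin (Eln), the fibrillins Fbn1 and Fbn2, and the fibulins Fbln2 and Fbln5. They were read by 18 probes and are 10 of 35157 genes with a value on the arrays. The expression profiles of iPS-OSH, iPS-J, ESC (embryonic stem cells) and MEF (mouse embryonic fibroblasts) were set against one another on 1-colour Agilent arrays, 1 array per group. iPS-OSH and iPS-J are induced pluripotent stem cell lines, derived by returning somatic cells to pluripotency, and MEF are matrix-producing cells grown from embryonic connective tissue. The genetic background was C57BL/6 for iPS-OSH, iPS-J and MEF, and 129SV for ESC. The 3 pluripotent populations shared a DMEM medium with 15% serum, 2-mercaptoethanol and the cytokine LIF, whereas MEF grew in DMEM with 10% serum and antibiotics. The reprogramming factors, passage number, number of clones and presence of feeder cells are not given in the sources used here.

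Elastic fibres give skin, lung and large arteries their recoil. Cells secrete fibrillins, which assemble into microfibrils, and fibulins help to place tropoelastin, the soluble product of Eln, on that scaffold. Lysyl oxidases are secreted copper-dependent amine oxidases that convert lysine side chains of elastin and collagen into reactive aldehydes, from which the covalent cross-links form.

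The probes are 60 bases long. The sequences printed here give the stretches behind the Loxl1 values, and set a probe that carries the Loxl2 name but lies on another chromosome beside 2 of the 3 Loxl2 probes on chromosome 14, leaving out the brightest (chr14:70095254-70095313). They are written in lower case, 5′ to 3′, with mm9 coordinates and strand from the deposited files.
Loxl1, chr9:58138570-58138629, minus strand, brightest probe: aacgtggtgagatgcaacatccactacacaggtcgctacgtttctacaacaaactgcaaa
Loxl1, chr9:58145451-58145510, minus strand: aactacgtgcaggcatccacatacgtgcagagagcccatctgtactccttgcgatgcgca
Loxl2, chr14:70090017-70090076, plus strand: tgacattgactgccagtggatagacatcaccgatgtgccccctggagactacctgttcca
Loxl2, chr14:70092141-70092200, plus strand: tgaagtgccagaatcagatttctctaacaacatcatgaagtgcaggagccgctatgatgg
Loxl2 by name, chr2:71475085-71475144, plus strand, a predicted locus: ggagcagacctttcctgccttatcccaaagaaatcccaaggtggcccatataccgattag

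All values below are processed fluorescence intensities of the authors' scanner files, here called signals. For differences, the signal of each array was divided by that array's 75th percentile (1241 to 1765) and put on the log2 scale, with the brightest probe standing for the gene. Higher and lower mean a difference of at least 2-fold, or 1 on the log2 scale, wherever genes are counted, a rule on size alone, because 1 array per group allows no test and gives no spread between cultures. Probes printed 10 times on each array gave a spot noise for a log2 difference between arrays of 0.12 to 0.20 (SD). Of 59305 non-control spots, 67.0% (iPS-J) to 81.7% (MEF) were well above background. All arrays lay on 1 slide, but they were scanned in 3 sessions (1 for MEF, 1 shared by the iPS lines and 1 for ESC), so scan session and group cannot be told apart in comparisons with MEF or ESC, nor strain and cell type in comparisons with ESC. Summed levels of pluripotent cell markers separated the 3 pluripotent arrays from MEF, though not every marker was alike among the 3. Zfp42 was far lower in iPS-OSH (signal 7251) and iPS-J (8441) than in ESC (172198), by -4.83 and -4.28. The 10 pluripotent cell markers had summed relative signals of 382 in iPS-OSH, 552 in iPS-J, 542 in ESC and 2.45 in MEF, and Sox2 and Zfp42 were not well above background in MEF.

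MEF had the highest signal of all 10 genes, and in both iPS lines every one of them was at least 2-fold below MEF. In iPS-OSH 10 of 10 genes were lower than in MEF and 0 higher, where 23.4% of all genes compared were lower and 12.6% higher. The median log2 difference of the 10 was -2.07, against -0.32 over all genes. In iPS-J 10 of 10 were lower and 0 higher (all genes 23.6% lower and 16% higher), with a median of -4.31 against -0.19. In ESC 9 of 10 were lower and 0 higher (all genes 16.5% lower and 21.8% higher), with a median of -4.38 against 0.11, and Eln lay within 2-fold. With quantile normalization, spike-in scaling and the deposited value table Eln passed that limit too, which made 10 of 10 lower. These 3 comparisons share the MEF array. The shares over all genes depended on the scaling. For ESC minus MEF they were 13.4% higher and 27.1% lower with spike-in scaling, 14.3% and 25.5% with the deposited values, and 27.5% and 13.3% with the percentile over detected probes. For iPS-J minus MEF they were 11.9% and 33.1% with spike-in scaling, 9.81% and 39.8% with the deposited values, and 14.2% and 13.6% with normexp background correction. For iPS-OSH minus MEF they were 15.3% and 18.6% with quantile normalization. In RNA of whole cultures, fewer cells of a type and less RNA per cell cannot be told apart.

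**Figure D1:**
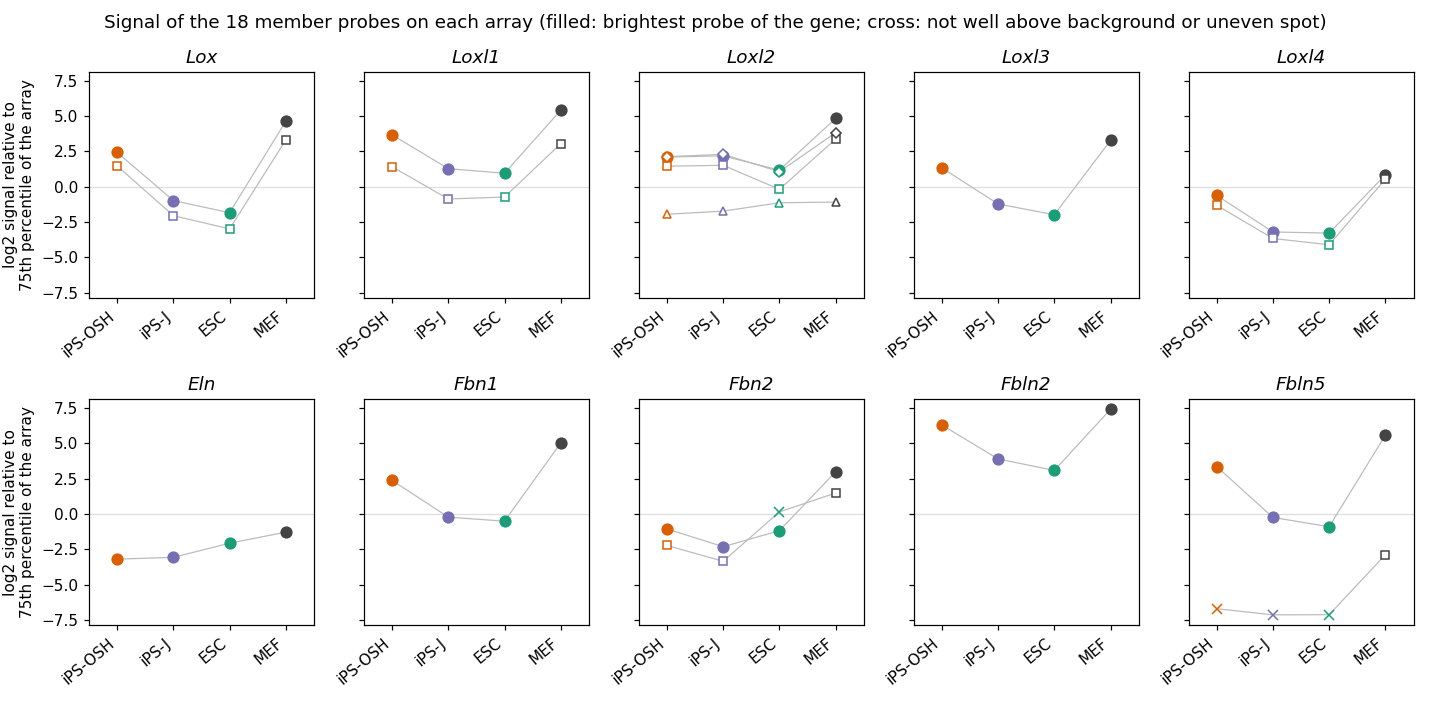
Log2 signal relative to the 75th percentile of the array (y) on the 4 arrays (x) for each of the 18 probes, 1 panel per gene, where filled points are the brightest probe, open points other probes and crosses values not well above background or from an uneven spot. MEF is highest in all panels by the brightest probe, and iPS-OSH is the second highest for 8 of them, the exceptions being Loxl2 and Eln. Levels of different probes are not comparable.

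Lox encodes the founding lysyl oxidase, which acts on both elastin and collagen. Its signal was 8392 in iPS-OSH, 628 in iPS-J, 365 in ESC and 43866 in MEF. The probe was bright in MEF and iPS-OSH and dim in iPS-J and ESC. The iPS-OSH array was 4.63-fold below MEF (log2 difference -2.21), iPS-J 49.1-fold (-5.62) and ESC 89.0-fold (-6.48). The other Lox probe, 3553 bases away on chromosome 18, gave -1.84, -5.36 and -6.29, so both probes placed the arrays in the same order.

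Loxl1 encodes the family member most closely tied to elastin, which is required for the upkeep of elastic fibres. Its signal was 19872 in iPS-OSH, 3008 in iPS-J, 2524 in ESC and 74767 in MEF. iPS-OSH stood between MEF and the remaining pluripotent arrays. The difference from MEF was -1.74 for iPS-OSH, -4.13 for iPS-J and -4.46 for ESC, or 3.33-fold, 17.5-fold and 21.9-fold. iPS-J and ESC differed by 0.33, which is 1.80 times the spot noise. The second Loxl1 probe printed above, 6881 bases away, had differences from MEF of -1.62, -3.91 and -3.77. It put iPS-J below ESC by a log2 difference of -0.14, so the probes did not settle the order of these 2 arrays.

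Loxl2, a lysyl oxidase with scavenger receptor domains that is known for collagen IV cross-linking and for its part in epithelial to mesenchymal transition, had another profile. Its signal was 6689 in iPS-OSH, 5626 in iPS-J, 2944 in ESC and 49982 in MEF. Both iPS lines lay together, at 15.1% and 16.0% of the scaled MEF signal, and ESC lay lowest at 7.95%. The iPS lines differed by a log2 value of -0.08, which is 0.69 times the spot noise, and its sign turned with spike-in scaling (0.10) and with the deposited value table (0.25). The 2 other Loxl2 probes on chromosome 14 gave -0.06 and -0.16 for iPS-OSH minus iPS-J. Their differences from MEF were -1.91 and -1.69 in iPS-OSH, -1.85 and -1.53 in iPS-J, and -3.55 and -2.75 in ESC. All 3 probes therefore had MEF highest and ESC lowest, with a smaller distance to MEF on these 2 than on the brightest probe (-2.73, -2.64 and -3.65).

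The fourth probe of that name, on chromosome 2, belongs to a predicted locus that the files describe as similar to Loxl2. Its signal was 405 in iPS-OSH, 374 in iPS-J, 595 in ESC and 829 in MEF. The differences from MEF were -0.86, -0.64 and -0.05, all within 2-fold. ESC and MEF were level on this probe, whereas ESC was the lowest array on the 3 probes on chromosome 14.

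Loxl3 encodes an enzyme known for its role in palate and cartilage development. It was read by 1 probe (chr6:83001888-83001947), with signals of 3939 in iPS-OSH, 532 in iPS-J, 330 in ESC and 17030 in MEF. The order was that of Lox, at 26.1%, 4.44% and 2.62% of MEF. The log2 differences from MEF were -1.94, -4.49 and -5.26.

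Loxl4, the fifth family member and less studied than the others, gave signals of 1021 in iPS-OSH, 135 in iPS-J, 134 in ESC and 3156 in MEF (chr19:42667320-42667379). The difference from MEF was -1.45 for iPS-OSH, -4.04 for iPS-J and -4.12 for ESC. iPS-J and ESC were level, with a difference of 0.08 that is 0.44 times the spot noise and that turned to -0.12 when the 75th percentile was taken over probes detected on all arrays. The other probe, 1413 bases away, gave -1.85, -4.20 and -4.65. In ESC the Loxl4 signal was below 262, a level that 95% of the ERCC control spots of that array did not reach, so by that stricter measure it was not detected there.

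Eln, which encodes tropoelastin, departed from the rest. Its signal was 171 in iPS-OSH, 148 in iPS-J, 311 in ESC and 724 in MEF (chr5:135179129-135179188, 1 probe). The 2 iPS arrays were lowest and ESC was between them and MEF. The difference from MEF was -1.91 for iPS-OSH, -1.78 for iPS-J and -0.79 for ESC, the last of which passed 2-fold with quantile normalization (-1.20), spike-in scaling (-1.28) and the deposited value table (-1.22). ESC had 58.0% of the scaled MEF signal, and the iPS lines had 26.6% and 29.1%. The iPS lines differed by -0.13, or 1.06 times the spot noise, and that sign turned with spike-in scaling (0.06) and with the deposited value table (0.21). The probe was well above background on every array. In the pluripotent arrays its signals lay close to the levels that 95% of the ERCC control spots stayed below. These levels were 262 for ESC, 122 for iPS-OSH and 121 for iPS-J. ESC thus had both the highest Eln signal and the highest control level of the pluripotent arrays. The part of that level in the place of ESC was not tested.

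Fbn1 encodes fibrillin-1, the main microfibril protein of adult tissue, which is mutated in Marfan syndrome. Its signal was 8105 in iPS-OSH, 1062 in iPS-J, 916 in ESC and 56822 in MEF (chr2:125126727-125126786). iPS-OSH was again between MEF and a low pair. The differences from MEF were -2.64, -5.23 and -5.52, or 6.21-fold, 37.6-fold and 46.0-fold. iPS-J and ESC differed by 0.29, which is 1.58 times the spot noise.

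Fbn2 encodes fibrillin-2, the fibrillin of the developing embryo. Its signal was 749.5 in iPS-OSH, 249 in iPS-J, 574 in ESC and 13936 in MEF. Here all pluripotent arrays were low, and iPS-OSH did not stand apart from ESC. The differences from MEF were -4.04, -5.30 and -4.17, which left 6.07%, 2.54% and 5.56% of the scaled MEF signal. iPS-OSH minus ESC was 0.13, which is 0.74 times the spot noise and turned to -0.06 with the percentile over detected probes. The other Fbn2 probe, 3532 bases away on chromosome 18, gave -3.71 for iPS-OSH and -4.82 for iPS-J against MEF. Its ESC spot was marked uneven and was left out, with a signal of 1444 as scanned, which by itself would place ESC nearer to MEF than the brightest probe does.

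Fbln2 encodes fibulin-2, a matrix glycoprotein that binds fibrillin and elastin precursors. Its signal was 122659 in iPS-OSH, 18374 in iPS-J, 11055 in ESC and 296791 in MEF (chr6:91222118-91222177). iPS-OSH was closer to MEF for this gene than for any other of the 10, at 46.6% of the scaled MEF signal against 8.80% in iPS-J and 5.03% in ESC. The differences were -1.10, -3.51 and -4.31, and the first of them fell inside 2-fold with quantile normalization (-0.94).

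Fbln5 encodes fibulin-5, which binds elastin and Loxl1 and is required for elastic fibre assembly. Its signal was 15886 in iPS-OSH, 1044 in iPS-J, 699 in ESC and 84092 in MEF (chr12:102988153-102988212). It followed Lox closely, at 21.3%, 1.77% and 1.12% of MEF. The differences from MEF were -2.23, -5.82 and -6.48, or 4.69-fold, 56.6-fold and 89.1-fold. The other Fbln5 probe, 3275 bases away, was well above background in MEF alone, with a signal of 240 there and of 15.0 for iPS-OSH, 8.81 for iPS-J and 9.37 for ESC. It was the 1 member probe of 18 that was not well above background on all 4 arrays.

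iPS-OSH and iPS-J share strain, medium, slide and scan session, and iPS-OSH exceeded iPS-J at least 2-fold for 8 of the 10 genes and was lower for 0, where 7.86% of all genes compared were higher and 7.28% lower. With spike-in scaling the shares over all genes were 10.8% and 5.18%, and 14.0% and 4.08% with the deposited value table. The median difference of the 10 was 2.48 and that of all genes 0. The size was 12.1-fold for Fbln5 (3.59), 10.6-fold for Lox (3.41), 6.06-fold for Fbn1 (2.60), 6.01-fold for Loxl4 (2.59) and 5.87-fold for Loxl3 (2.55). It was 5.30-fold for Fbln2 (2.41), 5.24-fold for Loxl1 (2.39) and 2.39-fold for Fbn2 (1.26). Loxl2 (1.06-fold) and Eln (1.09-fold) were level between the lines. The second probes gave 3.52 for Lox, 2.28 for Loxl1, 2.35 for Loxl4 and 1.12 for Fbn2.

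**Figure D2:**
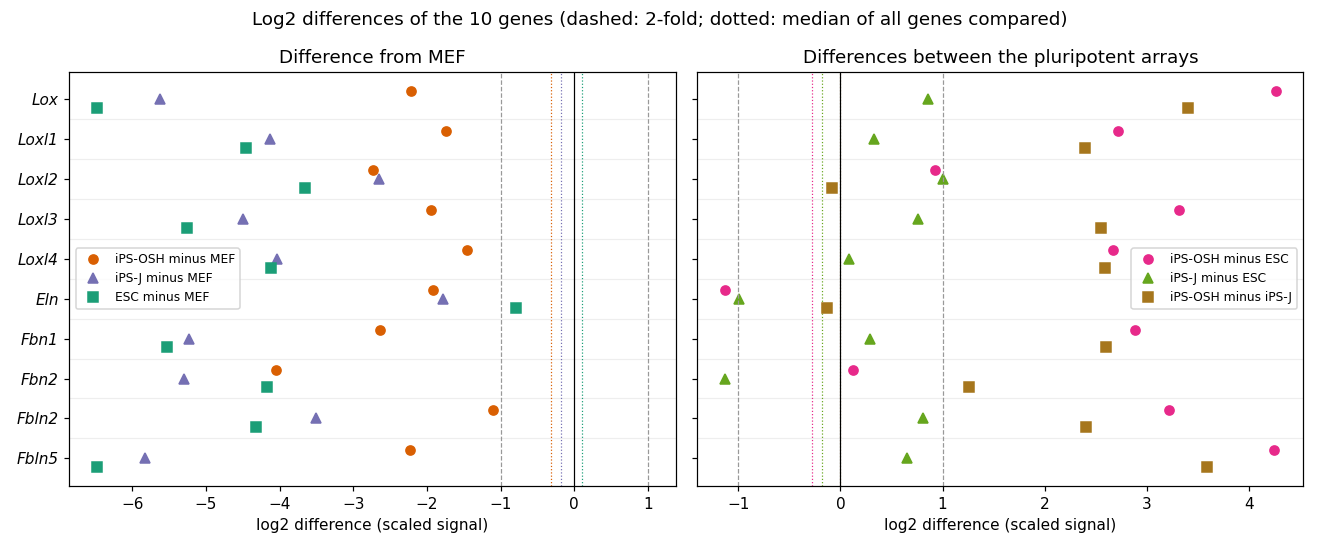
Log2 difference of the scaled signal (x) for each of the 10 genes (y), against MEF on the left and between the pluripotent arrays on the right, with dashed lines at 2-fold and dotted lines at the median of all genes. The iPS-OSH minus iPS-J points lie from 1.26 to 3.59 for 8 genes and near 0 for Loxl2 and Eln, and the iPS-J minus ESC points lie from -1.13 to 1.01.

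Against ESC, 7 of 10 genes were higher in iPS-OSH and 1 lower, where 8.73% of all genes were higher and 26.5% lower (15.5% and 15.9% with spike-in scaling, 13.1% and 15.2% after quantile normalization, 12.9% and 18.9% with the deposited value table). The median difference was 2.80, against -0.28 over all genes. By the brightest probe, Lox (4.26) and Fbln5 (4.25) were farthest above ESC, followed by Loxl3 (3.32), Fbln2 (3.21), Fbn1 (2.89), Loxl1 (2.72) and Loxl4 (2.67). The median over a gene's probes lowered Fbln5 to 2.34, and to 2.02 for iPS-OSH minus iPS-J, its other probe not being well above background outside MEF. Loxl2 (0.93) and Fbn2 (0.13) lay within 2-fold. Loxl2 passed that limit with spike-in scaling (1.30), the deposited value table (1.19) and the median over the probes of that name (1.33), which made 8 of 10 higher. That median included the probe of the predicted locus on chromosome 2. The other Loxl2 probes on chromosome 14 gave 1.63 and 1.06. Eln was lower in iPS-OSH (-1.13), a difference that lay within 2-fold with quantile normalization (-0.56), with the deposited value table (-0.86) and when scaled on spike-ins (-0.75).

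Of the 10 genes, 1 was higher in iPS-J than in ESC and 1 lower, with 8 within 2-fold, where 5.37% of all genes were higher and 23% lower (9.42% and 10.1% after quantile normalization, 8.44% and 17.9% with spike-in scaling). The median difference was 0.49, against -0.18 over all genes. Loxl2 was the higher one, at 1.01, and Fbn2 the lower one, at -1.13. Both lie near the 2-fold limit and neither held under every scaling. Eln lay just inside it, at -0.997. Lox was 0.86 higher in iPS-J, Fbln2 0.81, Loxl3 0.76 and Fbln5 0.65, all positive and more than 3 times the spot noise of 0.18. That noise does not include the scaling between arrays. Under the other ways of processing the values ranged from 0.66 to 1.28 for Lox, 0.56 to 0.99 for Fbln2, 0.56 to 1.22 for Loxl3 and 0.32 to 0.85 for Fbln5.

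Taken by order of level, the 10 genes formed 4 patterns. In Lox, Loxl1, Loxl3, Loxl4, Fbn1, Fbln2 and Fbln5 the order from high to low was MEF, iPS-OSH, iPS-J and ESC. In Loxl2 it was MEF, iPS-J, iPS-OSH and ESC, in Eln MEF, ESC, iPS-J and iPS-OSH, and in Fbn2 MEF, iPS-OSH, ESC and iPS-J. Neighbours under 2 times the spot noise apart were iPS-J and ESC for Loxl1, Loxl4 and Fbn1, both iPS lines for Loxl2 and Eln, and iPS-OSH and ESC for Fbn2. Likeness of profile was measured as the root mean square log2 distance over the 4 arrays, each profile centred on its own mean, as a description only. Lox and Fbln5 were each other's nearest member, 0.09 apart, and Loxl1 and Loxl4 likewise, at 0.14. The nearest members of Loxl2 (Loxl1, 0.92), Fbn2 (Fbn1, 0.98) and Eln (Loxl2, 1.06) were much farther away.

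Outside the 10, among 14754 genes with a common symbol and well above background on all arrays, Gpr176 came nearest to both Lox (0.10) and Fbln5 (0.18), followed by Ccdc80 for Lox (0.20) and Pde8b for Fbln5 (0.21). Slc25a24 and Emp3 came nearest to Loxl1 (0.06 and 0.07), Sytl2 and Serpinf1 to Loxl3 (0.05 and 0.07), and Parp3 and Lyz1 to Loxl4 (0.04 and 0.07). For Fbn1 these were the collagen gene Col8a1 and Prkg2 (0.10 each), and for Fbln2 Scarf2 and Anxa3 (0.03 and 0.06). Loxl2 was nearest to the matrix peroxidase gene Pxdn (0.04) and to Ecscr (0.06), and Eln to Galr2 (0.05) and Ugt2a1 (0.06). Fbn2 had no gene as close, with Cracd at 0.27 and Ptprz1 at 0.34.

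In sum, fibroblast markers had the array order of Lox, an order that Loxl2, Eln and Fbn2 did not share. All 10 of the markers Col1a1, Col3a1, Thy1, Pdgfra, Pdgfrb, Dcn, Lum, Prrx1, Twist2 and Fap were well above background on every array. By the stricter ERCC measure Lum was not detected in ESC, with a signal of 190 against 262. Their summed relative signal was 206 in iPS-OSH, 35.8 in iPS-J, 28.3 in ESC and 608 in MEF. As a percentage of MEF they ranged from 6.59 to 253 in iPS-OSH (median 31.1), from 1.72 to 34.8 in iPS-J (median 7.03) and from 2.38 to 20.7 in ESC (median 5.28). The 10 elastic fibre and lysyl oxidase genes ranged from 6.07 to 46.6 (median 23.8), from 1.77 to 29.1 (median 5.08) and from 1.12 to 58.0 (median 4.79). Between the iPS lines 9 of the 10 markers were higher in iPS-OSH and 0 lower (all genes 7.86% and 7.28%), with Pdgfra level (-0.15). Dcn, the decorin gene, was the single marker above MEF in iPS-OSH, at 253%. Pdgfra resembled Loxl2, with 31.2% in iPS-OSH, 34.8% in iPS-J and 8.12% on the ESC array. The part that cells of a fibroblast kind play in the member values was not tested.

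**Figure D3:**
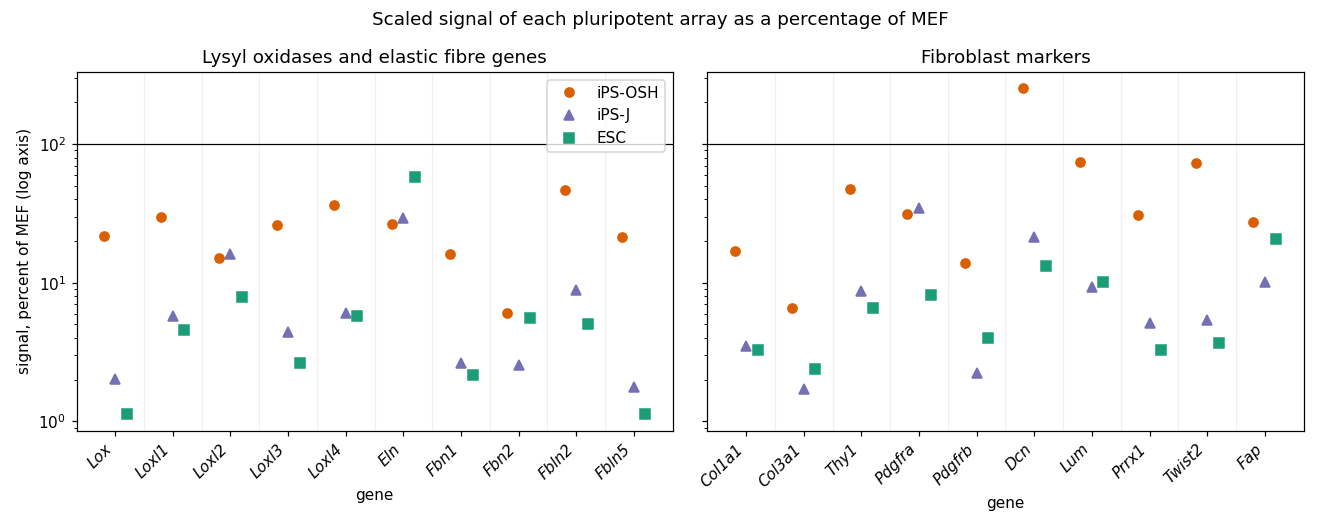
Scaled signal of each pluripotent array as a percentage of MEF (y, log axis) for the 10 genes and for the 10 fibroblast markers (x), 1 point per array. The iPS-OSH points of the 10 genes lie between 6.07% and 46.6%, whereas among the markers Dcn reaches 253%.

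Markers of other cell types were set beside these values in the same way. Smooth muscle, a tissue that makes much elastin, gave summed relative signals of 216 in iPS-OSH, 47.7 in iPS-J, 19.4 in ESC and 798 in MEF, the same order as Lox. Myocd was not well above background in either iPS line and Myh11 not in iPS-J. Des was within 2-fold of MEF on each pluripotent array, at -0.29, 0.31 and 0.24. The 10 primitive and visceral endoderm markers summed to 3.71, 70.0, 6.59 and 3.48, so iPS-J stood apart there, with Afp not well above background in any pluripotent array. Endothelial markers gave 8.44, 10.3, 6.82 and 14.8, macrophage markers 6.32, 6.74, 4.59 and 9.33, chondrocyte markers 1.75, 1.08, 2.07 and 5.16, and epithelial markers 19.4, 44.3, 29.7 and 5.71. Single markers can differ where the sums do not. Between the iPS lines 2 of 5 macrophage markers were higher in iPS-OSH and 0 lower, Lyz2 by 3.10 and Adgre1 by 1.28, as was 1 of 4 chondrocyte markers, Sox9, by 2.68. Of 5 endothelial markers 2 were higher in iPS-OSH, Tek by 2.33 and Flt1 by 1.15, and 1 was lower, Cdh5, at -3.13. The shares over all genes were 7.86% higher and 7.28% lower. The defining markers Tie1 (endothelium) and Matn1 (cartilage) were not well above background on any array. The part of these cell types in the results was not tested.

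Promoter sequence was at hand for 4 of the 10 genes, Fbn1, Fbln2, Fbln5 and Loxl4, as 5 windows of 250 bases upstream of a RefSeq start (GRCm38.p6, a different build from that of the probes). These genes were all highest in MEF and intermediate in iPS-OSH. The GC box GGGCGG, searched on both strands, occurred in 4 of the 5 windows and in 32.7% of 32851 promoter windows of the same length. It was found 3 times for Loxl4, 2 times in the first Fbln5 window and 1 time each for Fbn1 and Fbln2. TATAAA, searched likewise, occurred in 0 of the 5 and in 12.4% of all. The windows held 27 CpG for Loxl4, 21 for the first Fbln5 window, 13 for Fbn1, 8 for Fbln2 and 6 for the second Fbln5 window, against a median of 6 over all windows. A match of letters is a description and not a binding site. The 3 windows with the most CpG are shown, 5′ to 3′ on the strand of the gene, with GGGCGG or its reverse complement in capitals.
Loxl4, chr19:42612807-42613056, minus strand: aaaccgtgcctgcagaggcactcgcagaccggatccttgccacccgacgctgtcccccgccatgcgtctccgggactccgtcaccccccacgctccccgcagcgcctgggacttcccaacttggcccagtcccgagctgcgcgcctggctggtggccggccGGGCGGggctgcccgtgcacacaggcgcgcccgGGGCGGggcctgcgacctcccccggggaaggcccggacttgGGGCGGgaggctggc
Fbln5, chr12:101819120-101819369, minus strand: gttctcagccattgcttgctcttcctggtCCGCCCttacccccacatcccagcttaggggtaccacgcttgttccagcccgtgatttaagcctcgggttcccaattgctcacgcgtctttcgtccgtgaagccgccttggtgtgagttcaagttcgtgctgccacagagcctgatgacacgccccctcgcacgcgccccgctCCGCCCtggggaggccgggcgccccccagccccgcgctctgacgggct
Fbn1, chr2:125506439-125506688, minus strand: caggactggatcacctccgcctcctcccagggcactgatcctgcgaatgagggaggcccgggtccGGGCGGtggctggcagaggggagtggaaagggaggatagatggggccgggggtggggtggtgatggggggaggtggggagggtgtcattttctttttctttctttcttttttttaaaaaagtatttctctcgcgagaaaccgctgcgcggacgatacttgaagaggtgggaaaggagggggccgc

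The partners with which fibrillins, fibulins and elastin assemble were less uniform than the 10 genes. Members and lists were chosen with earlier results of these data known, so this contrast is a description only. Of 25 microfibril and elastic fibre partners, 10 were lower and 2 higher in iPS-OSH than in MEF, 15 and 3 in iPS-J, and 14 and 2 in ESC, with medians of -0.82, -1.53 and -1.87. Over all genes 23.4% were lower and 12.6% higher in iPS-OSH, 23.6% and 16% in iPS-J, and 16.5% and 21.8% in ESC. Higher partners were thus no more frequent than higher genes over all. Between the iPS lines 10 of 24 were higher in iPS-OSH and 1 lower (all genes 7.86% and 7.28%). By their brightest probes the microfibril-associated glycoprotein genes Mfap2 and Mfap4 were the lowest of this list in iPS-OSH minus MEF. In ESC minus MEF several partners lay below Mfap4, such as Efemp1 (-4.67). Mfap2 had differences of -2.94, -4.64 and -4.39, its other probe -1.81, -2.69 and -1.71, and Mfap4 of -3.21, -3.94 and -2.998. Efemp1, encoding fibulin-3, gave signals of 5277 in iPS-OSH, 543 in iPS-J, 682 in ESC and 23351 in MEF, and was likewise intermediate in iPS-OSH. The latent TGF-beta binding protein genes differed among themselves. Ltbp1 (-0.69, -3.27 and -3.86) and Ltbp2 (-0.75, -3.33 and -4.61) were within 2-fold of MEF in iPS-OSH and far below it in iPS-J and ESC. Ltbp4, which works with fibulin-5 in elastin assembly, ran the other way, with signals of 27538 in iPS-OSH, 22470 in iPS-J, 14464 in ESC and 10387 in MEF. It was higher than MEF by 1.58 for iPS-OSH, 1.62 for iPS-J and 0.91 for ESC, and its other probe gave 1.61, 1.66 and 0.76. The multimerin gene Mmrn2 was also higher in all pluripotent arrays (3.998, 4.73 and 4.31), and Emilin3, of the same family, in iPS-J (1.04) and ESC (1.96). In MEF the signals of Mmrn2 (238) and Emilin3 (153) lay below the ERCC level of 275 for that array. By the stricter ERCC measure neither was detected there.

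Genes that process lysyl oxidases, supply their copper or regulate them followed the enzymes in part. Of 18, 10 were lower than MEF in iPS-OSH, 11 in iPS-J and 12 on the ESC array, and 0 were higher, with medians of -1.11, -1.86 and -1.98. Among all genes 23.4%, 23.6% and 16.5% were lower, and 12.6%, 16% and 21.8% higher. The matricellular gene Postn (periostin, a scaffold for the processing of Lox) had signals of 14055 in iPS-OSH, 1818 in iPS-J, 1710 in ESC and 161240 in MEF. Its differences were -3.35, -5.96 and -6.13, the first of them beyond that of Lox (-2.21). Thbs1 (-1.45, -3.90 and -4.48) and Tgfb3 (-3.01, -4.95 and -5.13) had the same order of arrays. The collagen-binding proteoglycan gene Fmod (-4.10, -4.77 and -3.27) had ESC nearest to MEF, as Eln did, but both were dim in the pluripotent arrays. The Fmod signal for ESC was 271, just above the ERCC level of 262 for that array. For iPS-J it was 91.1 against 121, so by the stricter ERCC measure Fmod was not detected there. For iPS-OSH it was 183 against 122. Tll1, which encodes a procollagen proteinase of the Bmp1 family, differed by -0.997 for iPS-OSH, -4.80 for iPS-J and -3.97 for ESC, but by -0.61, -0.84 and -0.45 on its other probe, all within 2-fold. Its brightest probe lay below the ERCC level in iPS-J (73.1 against 121) and ESC (137 against 262). Bmp1, the proteinase that also cleaves Lox and named after its values were seen, gave signals of 13638, 4309, 2876 and 49027 in the same order with MEF last. The copper transporter gene Atp7a, which loads lysyl oxidases with copper and was also named after its values were seen, was within 2-fold of MEF in all 3, at -0.33, 0.05 and -0.95. The other copper genes of the list, named likewise, were not all so. Slc31a1 was lower in iPS-OSH (-1.51, -0.04 and -0.23), as was Atp7b (-1.06, -0.97 and 0.15). Slc31a2 and Atox1 lay within 2-fold on each pluripotent array. For iPS-OSH minus iPS-J, 7 of 17 were higher and 1 lower, Slc31a1 at -1.47 (all genes 7.86% and 7.28%). Tll1 was 3.80 higher by its brightest probe but 0.23 by its other probe, so the probes of this gene disagreed.

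Collagen, the other substrate of lysyl oxidases, was lower in all pluripotent arrays. Of 16 genes of fibrillar collagens and their lysine modification, 13 were lower in iPS-OSH, 11 in iPS-J and 14 on the ESC array, and 0 were higher, with medians of -2.35, -2.30 and -3.32. Among all genes 23.4%, 23.6% and 16.5% were lower, and 12.6%, 16% and 21.8% higher. Col1a1 and Col3a1, which are also among the fibroblast markers, differed by -2.56, -4.84 and -4.93 and by -3.92, -5.86 and -5.39. Col5a2 differed by -4.56 in iPS-OSH and -6.70 in ESC, and in iPS-J, where it was not well above background, the difference was -6.93 or beyond. By the stricter ERCC measure Col5a2 was not detected in ESC either, with a signal of 49.0 against 262. The counts and medians of the 16 genes pool collagens with enzymes and chaperones. The collagen genes alone differed from MEF by -4.56 to -1.78 in iPS-OSH and by -6.93 or beyond to -3.88 in iPS-J. Between the iPS lines 7 of the 16 genes were higher in iPS-OSH and 5 lower (all genes 7.86% and 7.28%). Every collagen gene was among the higher ones, from 1.94 (Col3a1) to 2.75 or more (Col11a1). The lower ones were all hydroxylase genes. The enzymes and chaperones, named here after their values were seen, differed among themselves. Fkbp10, which encodes a collagen chaperone, was 1.08 higher in iPS-OSH. The collagen chaperone gene Serpinh1 was level between the lines (-0.31), as Loxl2 was, while the prolyl hydroxylase gene P4ha2 (-2.10) and the lysyl hydroxylase gene Plod2 (-1.75) were lower in iPS-OSH.

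Genes of elastin and microfibril breakdown were mostly lower as well. Of 10, 7 were lower than MEF on each pluripotent array, and 1 was higher in iPS-OSH, with medians of -1.33, -2.53 and -2.40. Among all genes 23.4%, 23.6% and 16.5% were lower, and 12.6%, 16% and 21.8% higher. The 1 higher gene of this list is thus no more than the share over all genes. Between the iPS lines 5 were higher in iPS-OSH and 1 lower (all genes 7.86% and 7.28%). The cathepsin gene Ctsk had the order of Lox, at -1.53, -4.34 and -5.14, and so did the membrane metalloproteinase gene Mmp14, at -1.31, -3.76 and -4.33. The gelatinase gene Mmp9 was higher in iPS-OSH by 1.19, with signals of 295 there, 121 in iPS-J, 96.1 in ESC and 146 in MEF. All 4 Mmp9 signals were low, so this single higher gene rests on a dim probe.

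Factors of the mesenchymal transition, in which Loxl2 and Loxl3 are known to act through Snai1, also separated the arrays. Of 9, 5 were lower than MEF in iPS-OSH, 7 in iPS-J and 7 on the ESC array, and 2 were higher on each. Among all genes 23.4%, 23.6% and 16.5% were lower, and 12.6%, 16% and 21.8% higher. The transcription factor genes Snai2 (-2.11, -4.42 and -4.41) and Zeb2 (-1.94, -4.32 and -3.76) were intermediate in iPS-OSH. Twist2, which is also among the fibroblast markers, was within 2-fold of MEF in iPS-OSH (-0.45) and 3.77 higher there than in iPS-J. The higher ones were the epithelial genes Cdh1, at least 8.30, 9.19 and 9.33 above MEF, where it was not well above background, and Krt8 (3.74, 5.23 and 3.88). For iPS-OSH minus iPS-J, 7 of 9 were higher and 1 lower (all genes 7.86% and 7.28%). Their median was 1.64, while Loxl2 was level and Loxl3 was 2.55 higher.

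**Figure D4:**
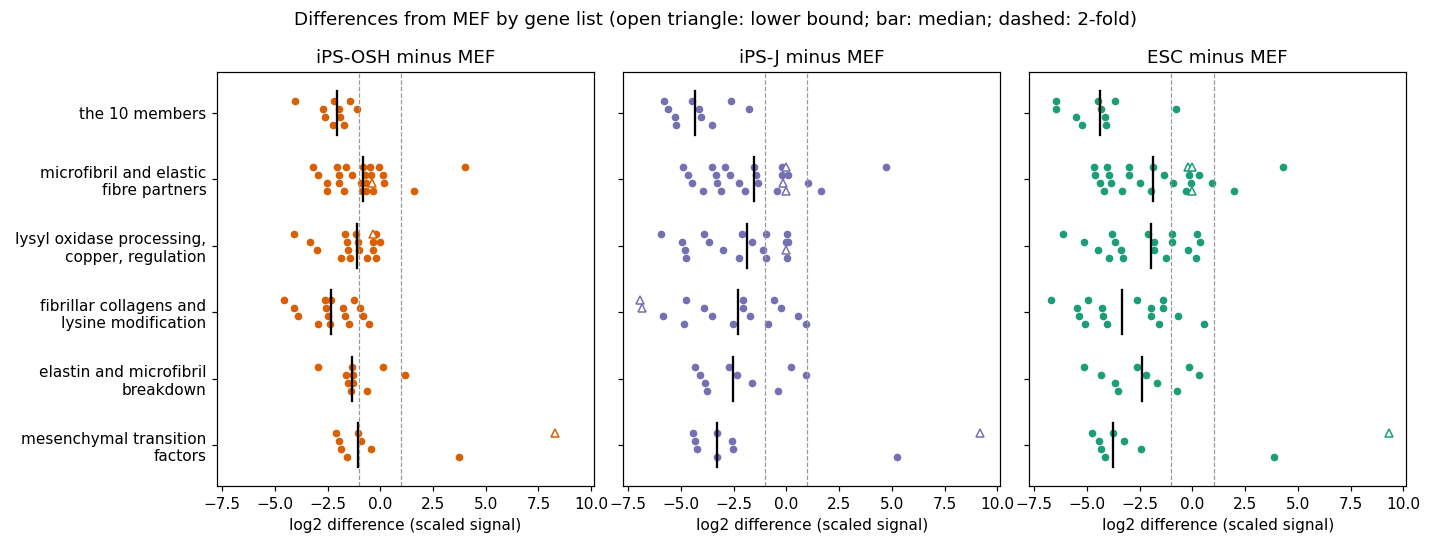
Log2 difference from MEF (x) of the genes of each list (y, 1 point per gene, bar at the median), with a panel for each pluripotent array, dashed lines at 2-fold and open triangles for bounds. The 10 genes lie wholly below 0 in every panel, whereas each other list but the collagens has genes at or above 0 in the iPS-OSH panel. Members and lists were chosen with earlier results of these data known.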

How the data were processed

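RNA of 4 cell populations was labelled with Cy3 and hybridized to Agilent arrays, per the labels. For 62976 spots the deposited scanner files give an intensity after subtraction of the background and detrending inside the array, both done by Agilent Feature Extraction 10.5.1.1, per the file headers. Nothing was normalized across arrays there. The value table of the authors has that intensity to 3 significant digits (checked on the files, largest deviation 0.497%).

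Uneven or outlying spots were left out (203 to 531 per array) and spots of 1 probe averaged. Log2 signals were scaled by the 75th percentile over non-control spots. The brightest probe represents a gene, with genes compared where 1 or both arrays had it well above background. Where it was so on 1 only, the difference is a bound, set at the dimmest signal that still counted as well above background. Gene names were updated through the accession (26425 probes), the symbol (3988) or a synonym (826), and 24442 were left as named in the file. Genes beyond the 10 were named by a rule: the 3 with the largest difference per list and comparison, genes at least 2-fold above MEF, and the 2 nearest profiles. The members and lists were chosen with earlier results of these data known. The steps were tested on simulated data.

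The results were recomputed in 9 other ways: normexp with an offset of 50 (limma 3.58.1, R 4.3.3), quantile normalization, the percentile over detected probes, scaling on 10 spike-in probes, requiring both arrays to be well above background, no filter, a gene's median over its probes, the value table and a 4-fold limit. A further one, detection above the 95th percentile of ERCC control probes, was added after seeing the data. For Loxl2 the median over probes included the probe on chromosome 2. The number of arrays limits the precision. Probe coordinates are those of the files (mm9), and exon or UTR was not analysed here. Promoter sequences are RefSeq's, on GRCm38.p6.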

Additional observations from a re-analysis of the deposited data

How the results depend on the processing

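Of 540 member differences recomputed under the alternatives, 336 moved by no more than the spot noise, 204 moved further and 0 of those of at least 2-fold changed sign. Of 423 recomputed values of differences that were at least 2-fold, 412 stayed so in the same direction. The exceptions were Fbln2 in iPS-OSH minus MEF, Eln in iPS-OSH minus ESC, and Loxl2 and Fbn2 in iPS-J minus ESC. The median over the 10 genes ranged from -2.25 to -1.92 for iPS-OSH minus MEF, from -4.82 to -4.20 for iPS-J minus MEF, from -4.88 to -4.16 for ESC minus MEF, from 2.58 to 3.18 for iPS-OSH minus ESC, from 0.29 to 0.68 for iPS-J minus ESC and from 2.37 to 2.81 for iPS-OSH minus iPS-J. With the 4-fold limit, 5 members in place of 10 were lower in iPS-OSH than in MEF, where 3.30% of all genes were. Members lower in iPS-OSH than in ESC numbered 0 in place of 1 with quantile normalization, spike-in scaling, the value table and the 4-fold limit. Members higher in iPS-J than in ESC, 1 in the report, numbered 2 with quantile normalization and spike-in scaling and 0 with normexp, the percentile over detected probes, the value table and the 4-fold limit. Members lower in iPS-J than in ESC, also 1, numbered 2 with the percentile over detected probes and the value table and 0 with normexp, quantile normalization, spike-in scaling and the 4-fold limit. The cause of these moves was not tested beyond the stricter limit itself. Other scalings shifted the median of all genes by -0.51 (iPS-J minus MEF, value table) to 0.36 (iPS-OSH minus ESC, spike-in). Of 600 counts over the further lists, 524 stayed within 1.5 times, and of 1080 differences of at least 2-fold of the further named genes 1059 stayed so. With ERCC-based detection 3 differences of Loxl4 became bounds. No paired analysis was possible because each group holds 1 array. Dim signals limit Eln and Loxl4 in the pluripotent arrays, and with 1 array per group no difference has a replicate check.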
